A study of Mus musculus with 8 samples.

Results

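*Tecta*, *Tectb*, *Otog*, *Otogl*, *Otoa*, *Ceacam16* and *Umodl1*, genes of the tectorial and otoacellular membranes, the gels that overlie the sensory epithelia of the inner ear, were chosen by name. Of these 7, 6 had a row among the 36536 genes of the count tables, matched by Ensembl identifier through the NCBIM37 (mm9) annotation, and *Otogl* was not analysed here. The cells came from freshly dissected cochleas of mice with the *Lfng-EGFP* BAC transgene (B6;FVB-Tg(Lfng-EGFP)HM340Gsat/Mmucd), which was carried in all 4 groups. They were sorted at postnatal day 1 (P1) or 6 (P6) into GFP+ and GFP- fractions, with 2 replicate RNA-seq libraries in each group and 8 libraries in all. In these mice *Lfng* regulatory sequences drive GFP in border, inner phalangeal, outer pillar and Deiters' cells, but not in inner pillar cells, and only the brightest cells were kept as GFP+. GFP- cells are the other cells of the dissected cochlea, cells of low GFP were not collected, and each library pooled many cochleas. Reissner's membrane and the lateral wall with its stria were removed at P1 but only in part at P6, so the GFP- fractions of the 2 ages differ in dissection as well as in age. Nothing in the labels says whether the replicates came from separate animals or litters, so p-values measure only the spread between these libraries.

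The tectorial membrane is a gel of collagen fibrils and glycoproteins that lies over the hair cells and through which sound deflects their bundles. *Tecta* and *Tectb* code for α- and β-tectorin, which carry a zona pellucida domain, the part through which such proteins assemble into filaments, and which form the striated sheets between the collagen fibrils. *Otog* codes for otogelin, a large glycoprotein related to mucins and von Willebrand factor that is found in the acellular membranes of the cochlea and the vestibular organs. Otoancorin, the product of *Otoa*, belongs to the mesothelin family and lies where these gels attach to the surface of nonsensory cells. *Ceacam16* codes for a secreted adhesion protein of the tectorial membrane that binds tectorin, and *Umodl1* for a uromodulin-like protein that also carries a zona pellucida domain.

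The count of reads on genes ranged from 17769024 to 67695039 per library. Of 8 supporting cell markers, 7 were higher in GFP+ cells at both P1 and P6 (edgeR, adjusted p-value below 0.05). Among all genes tested, 25.5% were higher at P1 and 15.5% at P6. The other marker, *Slc1a3*, was lower in GFP+ cells at P1 and did not pass the test at P6. A gene is compared across libraries in CPM, its reads for every 1000000 counted on genes. By these values, markers of other cell types differed between replicates in some groups. In P1 GFP- replicate 2 the 3 greater epithelial ridge markers summed to 643 CPM against 201 in replicate 1, and 4 neuronal markers to 467 against 141. In P6 GFP+ replicate 2 the 5 markers of spiral limbus and otic fibrocytes summed to 2813 CPM against 784 in replicate 1, and several other marker lists were higher there too. In P6 GFP- cells 3 red cell markers summed to 213 CPM in replicate 1 and 549 in replicate 2. Levels of different genes are compared only as RPKM, which also divides by the kilobases of annotated exon. Fewer cells of a type and less RNA per cell cannot be told apart in such sorted pools.

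**Figure D1:**
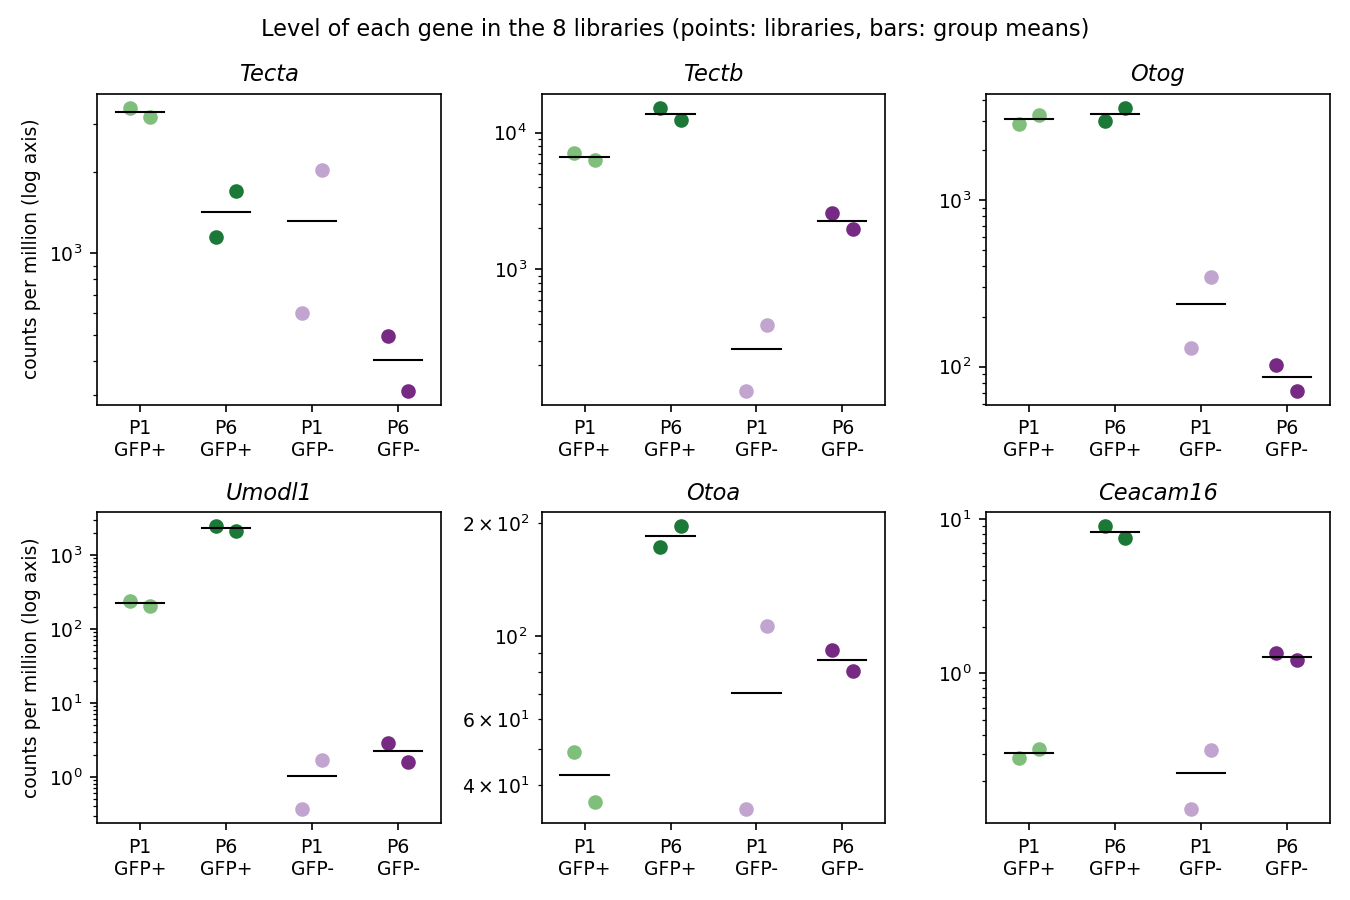
CPM of each gene (y axis, log scale, a separate range for each gene) in the 4 groups of age and fraction (x axis); points are single libraries and black bars are means of 2 replicates. *Otog* had similar levels in the GFP+ libraries of both ages, *Tecta* was lower at P6, the 4 other genes were higher at P6 in GFP+ cells, and the P1 GFP- replicates were spread widely for all 6 genes.

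At P1, *Tectb*, *Otog* and *Umodl1* were enriched in GFP+ cells, by 27.4-fold, 13.9-fold and 210.0-fold. These 3 of the 6 measured genes had an adjusted p-value below 0.05 and none was lower in GFP+ cells, while 25.5% of the 18682 genes tested were higher and 28.1% were lower. The same 3 genes met stricter criteria (adjusted p-value below 0.01 and a fold change above 4), which 6.46% of the genes tested met as higher in GFP+ cells. *Tecta*, *Otoa* and *Ceacam16* did not pass the test. The median log2 fold change of the 6 genes was 2.62, beside 0.01 for all genes tested.

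*Tectb* (ENSMUSG00000024979, chr19:55255223-55270803, + strand) had 7028 and 6318 CPM in the P1 GFP+ libraries and 130.4 and 394 CPM in the P1 GFP- libraries. Its fractions did not overlap, and the log2 fold change was 4.78 (standard error 0.55, adjusted p = 0.000826 by edgeR). *Tecta* (ENSMUSG00000037705, chr9:42137702-42208012, - strand) had 3458 and 3205 CPM in GFP+ cells against 599 and 2028 CPM in GFP- cells. The fractions did not overlap for *Tecta* either, but its GFP- replicates lay so far apart that the log2 fold change of 1.45 (standard error 0.52) had an adjusted p of 0.0591. With either GFP- library left out it passed, at 0.795 without replicate 1 (adjusted p = 1.13e-06) and 2.57 without replicate 2 (3.64e-19), the lone GFP- library being taken to vary like the others. The α-tectorin transcript was thus abundant in both fractions at P1, and ranked among the 132 most highly counted genes in all 4 libraries.

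*Otog* (ENSMUSG00000009487, chr7:53496357-53566804, + strand) had 2888 and 3255 CPM in P1 GFP+ cells and 129.7 and 347 CPM in P1 GFP- cells, and the log2 difference was 3.79 (standard error 0.47, adjusted p = 0.00108). *Umodl1* (ENSMUSG00000054134, chr17:31091624-31147653, + strand) had 239 and 204 CPM in GFP+ cells but 0.369 and 1.70 CPM in GFP- cells, which are 14 and 107 reads. Of all 6 genes it showed the largest difference between the fractions, at 7.71 on the log2 scale (standard error 0.50, adjusted p = 8.32e-05), the 16th largest of the genes tested.

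*Otoa* (ENSMUSG00000034990, chr7:128226836-128306611, + strand) went the other way in value but not in the test at P1. It had 49.1 and 36.0 CPM in GFP+ cells against 34.5 and 106 CPM in GFP- cells, so that the fractions overlapped (log2 fold change -0.62, 95% interval -1.82 to 0.59, adjusted p = 0.334). Without P1 GFP- replicate 2 the sign turned, to 0.41, and without replicate 1 the value was -1.23. Each of these fits had a lone GFP- library and left out the spread between the GFP- replicates. *Ceacam16* (ENSMUSG00000014686, chr7:20437446-20446648, - strand) was barely detected at P1, with 13 and 8 reads in the GFP+ libraries and 5 and 20 reads in the GFP- libraries. A difference between the fractions was not detectable at this depth (log2 fold change 0.44, 95% interval -0.92 to 1.81). Its annotated exons share 380 of 1635 bases with those of RP23-191I16.2 on the opposite strand, which was not analysed here, and the libraries do not mark strand, so the level of *Ceacam16* is uncertain.

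At P6, all 6 genes were higher in GFP+ cells, against 15.5% of the 18294 genes tested, and none was lower, against 17.9%. The fractions did not overlap for any of them. *Tectb*, *Otog*, *Ceacam16* and *Umodl1* also met the stricter criteria, which 4.88% of the genes tested met in this direction. The median log2 fold change of the 6 genes was 2.64, beside -0.02 for all genes tested. Without P6 GFP- replicate 2, which leaves a lone GFP- library, the calls of *Tecta*, *Tectb* and *Otoa* were lost, with the direction kept for all 3. Far fewer of all genes were called at this setting as well. Over all alternatives their log2 fold changes ranged from 1.49 to 2.24, 2.39 to 2.86 and 0.98 to 1.25. The call of *Otoa* was also lost with all 8 libraries in the fit (adjusted p = 0.0839).

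*Umodl1* headed the list of all genes tested at P6. It had 2453 and 2121 CPM in GFP+ cells and 2.84 and 1.60 CPM in GFP- cells, and its log2 difference was 10.00 (standard error 0.48, adjusted p = 0.000645). *Otog* was the next most enriched of the 6, with 2999 and 3599.8 CPM in GFP+ cells and 102 and 72.0 CPM in GFP- cells (log2 fold change 5.24, standard error 0.34, adjusted p = 0.000893). Both genes were lower in each P6 GFP- library than either tectorin.

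*Tectb* reached 15195 and 12269 CPM in P6 GFP+ cells, where it ranked second among all genes by counts in both libraries, and 2574 and 1961 CPM in P6 GFP- cells. The log2 fold change between the fractions was 2.59 (standard error 0.38, adjusted p = 0.00676). *Tecta* had 1146 and 1694 CPM in GFP+ cells and 496 and 310.5 CPM in GFP- cells, so that the fractions differed by 1.80 log2 units (standard error 0.34, adjusted p = 0.0130). Both tectorins were thus higher in GFP+ cells, though with smaller ratios than *Otog* and *Umodl1*.

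*Otoa* had 173 and 197 CPM in P6 GFP+ cells and 91.8 and 80.5 CPM in P6 GFP- cells, the smallest enrichment of the 6 (log2 fold change 1.09, standard error 0.17, adjusted p = 0.00788). *Ceacam16* was at 9.0 and 7.57 CPM in GFP+ cells and at 1.35 and 1.23 CPM in GFP- cells, from 160 and 226 reads and from 83 reads in each GFP- library. Its log2 fold change was 2.68 (standard error 0.29, adjusted p = 0.00295). Although low, *Ceacam16* was thus measured in every P6 library well above the level of 3 reads, at most 0.169 CPM.

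**Figure D2:**
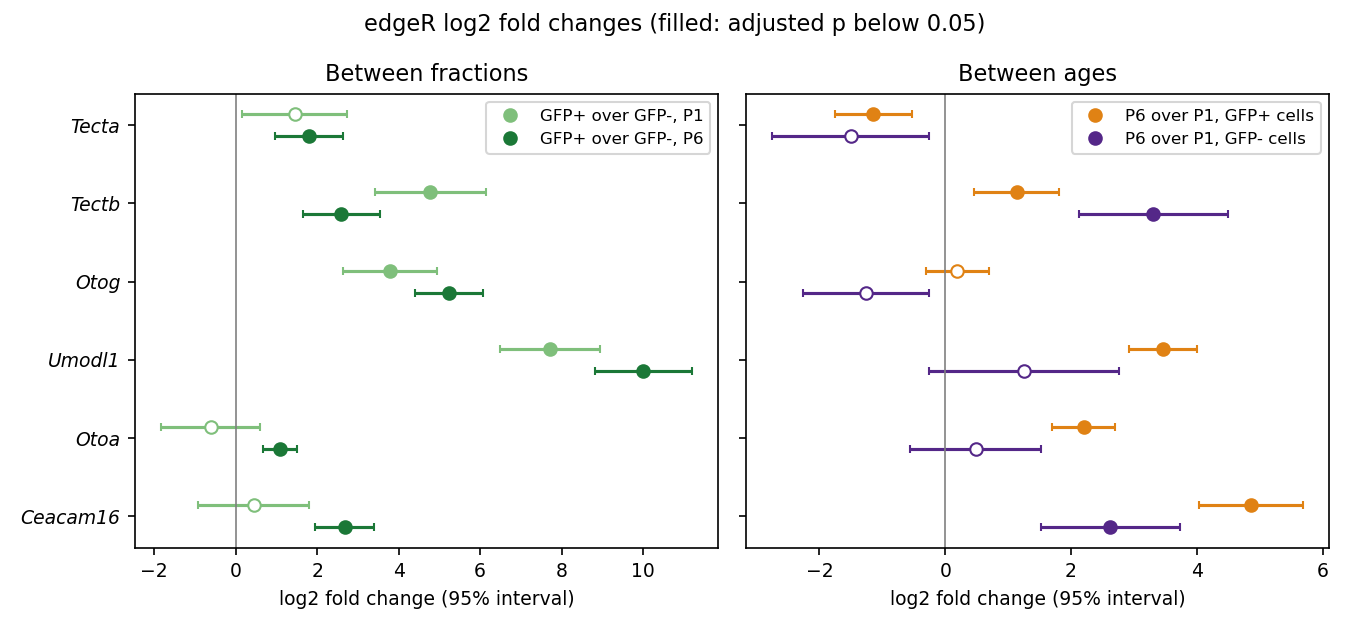
edgeR log2 fold changes (x axis) with 95% intervals for each gene (y axis), between fractions at P1 and P6 on the left and between ages in GFP+ and GFP- cells on the right; filled points have an adjusted p-value below 0.05. All 6 points are filled and positive for P6 GFP+ over GFP-, and in GFP+ cells *Tecta* is negative and *Otog* near 0 while the other 4 are positive between ages.

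Between P1 and P6 in GFP+ cells, the transcripts of the 6 genes shifted against one another. *Ceacam16* rose 29.0-fold, *Umodl1* 11.0-fold, *Otoa* 4.61-fold and *Tectb* 2.20-fold, while *Tecta* fell to 0.452 of its P1 level and *Otog* did not pass the test. Thus 4 of the 6 genes rose and 1 fell, beside 12.1% and 8.31% of the 17213 genes tested. *Otoa*, *Ceacam16* and *Umodl1* met the stricter criteria, as did 1.63% of the genes tested as higher at P6. The median log2 fold change of the 6 genes was 1.67, and -0.002 for all genes tested.

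The rise of *Ceacam16* (log2 fold change 4.86, standard error 0.32, adjusted p = 0.00273), *Umodl1* (3.46, standard error 0.21, adjusted p = 0.00259) and *Otoa* (2.20, standard error 0.20, adjusted p = 0.00407) was past the threshold in all 11 alternative analyses of each. For *Ceacam16* it started from 13 and 8 reads, so the size of its rise is a rough estimate. The changes of the tectorins, in opposite directions, were near the threshold: *Tectb* had a log2 fold change of 1.14 (standard error 0.27, adjusted p = 0.0417), and *Tecta* fell by 1.14 on the log2 scale (standard error 0.24, adjusted p = 0.0315). Neither passed without P1 GFP+ replicate 1 (adjusted p = 0.332 for *Tectb* and 0.191 for *Tecta*) or without replicate 2 (0.432 and 0.174), or with all 8 libraries in the fit (0.104 and 0.134). For *Otog* the log2 fold change was 0.19, with a 95% interval from -0.31 to 0.70. Leaving out P6 GFP+ replicate 2, the library with more fibrocyte transcripts, kept the sign of all 6 differences and the calls. Markers of several cell types also moved between ages in GFP+ cells. The summed fibrocyte markers were 203 and 212 CPM at P1 and 784 and 2813 CPM at P6, those of Schwann cells and glia 366 and 332 CPM and then 908 and 1903 CPM, and those of melanocytes 4.73 and 6.99 CPM and then 40.1 and 97.5 CPM. Called higher at P6 were 3 of 5 fibrocyte, 3 of 4 Schwann cell and glial, 3 of 3 tested melanocyte and 4 of 4 macrophage markers. Of the 8 supporting cell markers, *Prox1* (564 and 520.3 CPM at P1, 81.4 and 133 CPM at P6), *Hes5* (121 and 199.6 CPM, then 22.1 and 16.3 CPM) and *Sox2* (589 and 616 CPM, then 361 and 283 CPM) fell, *Slc1a3* rose, and the other 4 did not pass the test. The part of these cell types in the changes of the 6 genes was not tested.

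The promoters of the tectorins and of *Umodl1*, whose transcripts moved in different directions in GFP+ cells, are shown as the 150 bases before the RefSeq start of transcription, 5′ to 3′ on the strand of the gene. RefSeq sequences (GRCm38.p6) were given for 5 of the 7 genes, and each stretch matched the NCBIM37 genome exactly and in 1 place: chr19:55255066-55255215 (+) for *Tectb*, chr17:31091478-31091627 (+) for *Umodl1* and chr9:42208031-42208180 (-) for the *Tecta* start nearest the annotated gene. Capitals mark matches to the letters searched.
Tectb: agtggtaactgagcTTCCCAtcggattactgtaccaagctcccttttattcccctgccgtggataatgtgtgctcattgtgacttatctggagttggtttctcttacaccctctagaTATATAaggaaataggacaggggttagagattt
Umodl1: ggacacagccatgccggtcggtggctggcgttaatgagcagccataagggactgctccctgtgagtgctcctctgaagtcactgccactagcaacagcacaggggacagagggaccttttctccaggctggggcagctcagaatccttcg
Tecta: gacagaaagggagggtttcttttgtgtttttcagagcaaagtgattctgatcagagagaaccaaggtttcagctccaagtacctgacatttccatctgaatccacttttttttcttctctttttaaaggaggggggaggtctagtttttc
Letters of 5 motifs were searched on both strands of the whole 300-base windows, from 250 bases before to 50 bases after the start. They were the TATA box letters TATAAA, the variant TATATA of these, the nuclear receptor letters AGGTCA, the letters TGGGAA of the Notch effector RBPJ, and the SOX letters AACAAT, and none of the 5 overlaps another in these windows. *Tectb* held TATATA, which begins 33 bases before the start and which 5.67% of all 32851 windows hold, and TGGGAA on the opposite strand, 136 bases before the start, which 25.6% of windows hold. In the windows of *Umodl1* and this *Tecta* start none of the 5 was found, while the window of the other RefSeq start of *Tecta*, not shown, held TGGGAA on the opposite strand, 44 bases after its start. The windows held 4 CpG for *Tectb*, 7 for *Umodl1* and 4 for *Tecta*, where the median of all windows was 7. These matches describe the letters only.

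In GFP- cells, *Tectb* and *Ceacam16* were higher at P6 than at P1 and none of the 6 genes was called lower, beside 11.3% and 7.87% of the 18920 genes tested. *Tectb* rose 9.92-fold (log2 fold change 3.31, standard error 0.50, adjusted p = 0.00598) and met the stricter criteria, as did 1.43% of the genes tested as higher. *Ceacam16* rose 6.17-fold (log2 fold change 2.63, standard error 0.47, adjusted p = 0.0108), but not without P6 GFP- replicate 1 (adjusted p = 0.0782) or 2 (0.0519). The other 4 did not pass the test, with log2 differences of -1.5 for *Tecta*, -1.26 for *Otog*, 0.48 for *Otoa* and 1.25 for *Umodl1*. For those 4 genes the log2 difference depended on which P1 GFP- library was kept, and a fit with a lone library leaves out the spread between these replicates. Without replicate 1 it was -2.15 for *Tecta* and -1.81 for *Otog*. Without replicate 2 it was 1.5 for *Otoa* and 2.75 for *Umodl1*. Scaling by library totals moved the median of all genes in this comparison to -0.21, against -0.02, with the same calls for the 6 genes. Of the 8 supporting cell markers in GFP- cells, *Fgfr3* was higher at P6 (17.3 and 30.4 CPM at P1, 36.8 and 41.2 CPM at P6), *Prox1* and *Hes5* were lower, and the other 5 did not pass the test, with a median log2 fold change of -0.02 over the 8. Their summed level was 605 and 669 CPM at P1 and 529 and 505 CPM at P6, over 300 CPM of it from *Slc1a3* at P1, and the part of supporting cells in the rise of *Tectb* was not tested.

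The P1 GFP- replicates differed in the same way for all 6 genes. The ratio of replicate 2 to replicate 1 was 3.38 for *Tecta*, 3.02 for *Tectb*, 2.68 for *Otog*, 3.08 for *Otoa*, 4.59 for *Umodl1* and 2.40 for *Ceacam16*. The same ratio was 3.20 for the summed greater epithelial ridge markers and 3.32 for the neuronal markers. Of the ridge markers, *Epyc*, for a proteoglycan, had 172 CPM in replicate 1 and 533 in replicate 2, *Fgf10* 18.1 and 64.6, and *Crabp1* 10.9 and 45.5. Among the supporting cell markers it was 2.52 for *Prox1*, 2.22 for *Hes5*, 1.88 for *Lfng*, 1.77 for *Jag1*, 1.76 for *Sox2* and 1.76 for *Fgfr3*, 1.17 for *Cdkn1b* and 0.825 for *Slc1a3*, whose high level held the ratio of their sum at 1.10. Among the hair cell markers it ranged from 0.762 (*Tmc1*) to 1.65 (*Gfi1*), and for the fibrocyte sum it was 0.858. The part of the greater epithelial ridge, of neurons or of supporting cells in the levels of the 6 genes was not tested. Between the P6 GFP+ replicates the ratio was 3.59 for the summed fibrocyte markers and 0.750 for the summed supporting cell markers, and it ranged from 0.807 (*Tectb*) to 1.48 (*Tecta*) for the 6 genes.

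**Figure D3:**
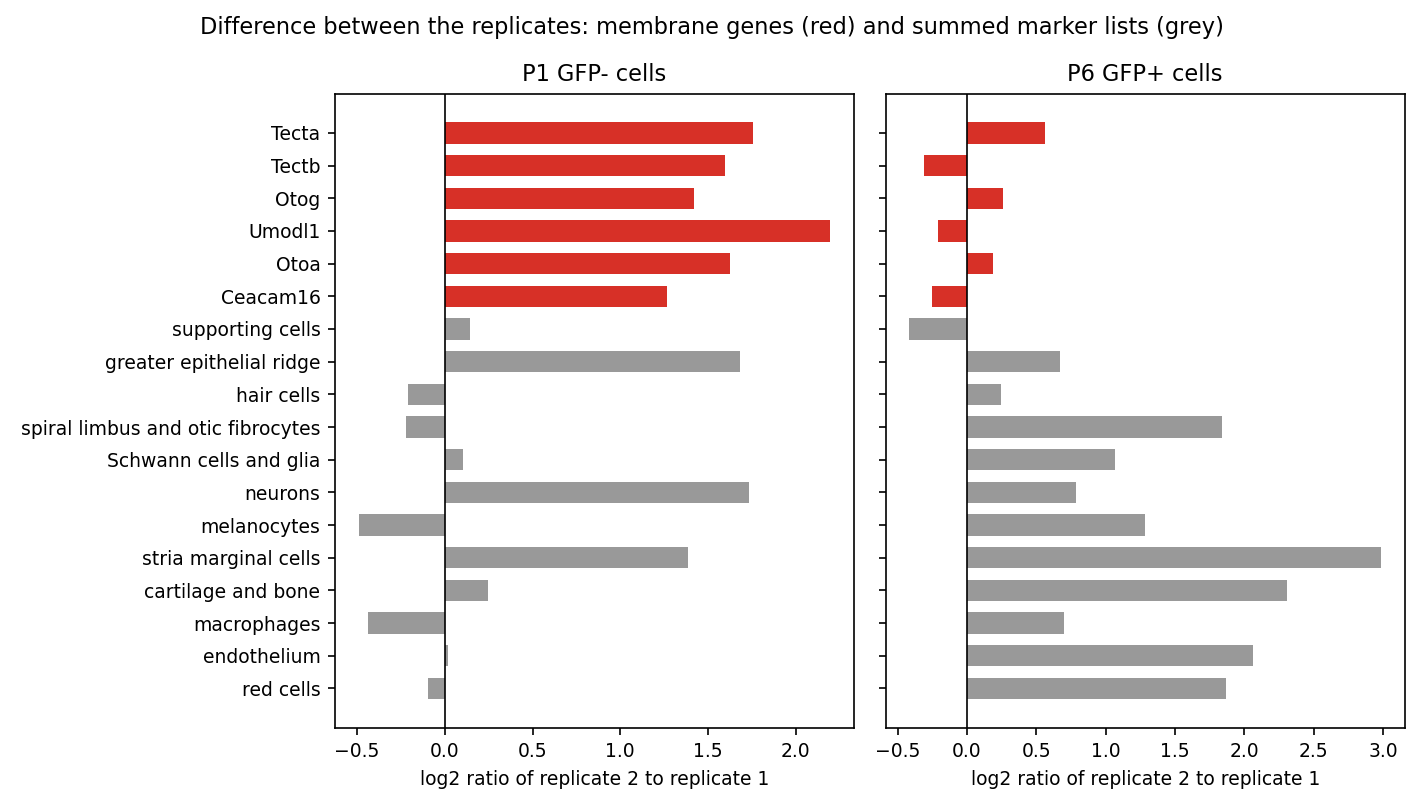
Log2 ratio of replicate 2 to replicate 1 (x axis) for the 6 genes (red bars) and for 12 lists of cell type markers, each summed as CPM (grey bars), in P1 GFP- cells on the left and P6 GFP+ cells on the right. In P1 GFP- cells all 6 genes and the greater epithelial ridge, neuron and stria marginal cell lists were more than 2 times higher in replicate 2, and in P6 GFP+ cells 7 of the 12 lists were, while the 6 genes lay between 0.807 and 1.48 times. The supporting cell bar in P1 GFP- cells is weighed down by *Slc1a3* (0.825), beside 1.17 to 2.52 for the other 7 markers.

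The interaction of age and fraction, which asks whether the ratio of GFP+ to GFP- cells differed between ages, was called for none of the 6 genes by edgeR, with 3.6% of 19233 genes called higher and 2.79% lower. The log2 estimates were 2.23 for *Ceacam16* (adjusted p = 0.0622), 2.23 for *Umodl1* (0.112), 1.70 for *Otoa* (0.155), 1.43 for *Otog* (0.205), 0.34 for *Tecta* (0.841) and -2.19 for *Tectb* (0.0932). Their unadjusted p was below 0.05 for 5 of the 6, as it was for 21.2% of all genes. DESeq2 called 3 of the 6, with *Ceacam16* and *Otoa* higher and *Tectb* lower. It also called more of all 19233 genes than edgeR, 1463 higher and 826 lower, against 692 and 536. The estimate for *Tectb* was the only one below 0, with a GFP+ to GFP- ratio of 27.4 at P1 and 6.03 at P6.

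Per exon length, *Tectb* was the most abundant of the 6 transcripts in GFP+ cells of both ages and in GFP- cells at P6. In P1 GFP+ cells it had 1747 ± 131 RPKM (SD, n = 2), followed by *Tecta* (450 ± 24.1), *Otog* (306 ± 25.8), *Umodl1* (44.0 ± 4.93), *Otoa* (9.92 ± 2.17) and *Ceacam16* (0.185 ± 0.0163). In P6 GFP+ cells *Umodl1* (453 ± 46.6 RPKM) and *Otog* (328 ± 42.3) stood between *Tectb* (3595 ± 542) and *Tecta* (192 ± 52.3), and *Otoa* (43.1 ± 3.99) and *Ceacam16* (5.07 ± 0.622) followed. No neighbours in these 2 orders overlapped between replicates. *Tecta* thus held place 2 at P1 and place 4 at P6, and *Umodl1* the reverse.

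In P1 GFP- cells *Tecta* led with 177 ± 136 RPKM, but its range overlapped that of *Tectb* (68.6 ± 48.8), which overlapped that of *Otog* (23.7 ± 15.3), which overlapped that of *Otoa* (16.4 ± 11.8). *Umodl1* (0.205 ± 0.186) and *Ceacam16* (0.137 ± 0.0800) also overlapped. In P6 GFP- cells the order was *Tectb* (594 ± 113 RPKM), *Tecta* (54.4 ± 17.7), *Otoa* (20.1 ± 1.86), *Otog* (8.66 ± 2.11), *Ceacam16* (0.786 ± 0.0517) and *Umodl1* (0.439 ± 0.174), with no overlap between neighbours. Of the 4 groups, P1 GFP- was the one in which *Tecta* stood before *Tectb*.

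Ratios of genes within a library do not depend on how libraries are scaled to each other. The RPKM of *Tectb* was 3.94 and 3.82 times that of *Tecta* in P1 GFP+ cells and 25.7 and 14.1 times in P6 GFP+ cells. In GFP- cells the ratio was 0.422 and 0.377 at P1, close between replicates that differed about 3 times in the level of each gene, and 10.1 and 12.3 at P6. The ratio of β- to α-tectorin transcript was thus higher at P6 in both fractions, with no overlap between ages. *Umodl1* went from 0.102 and 0.0936 times the RPKM of *Tecta* in P1 GFP+ cells to 3.14 and 1.84 times in P6 GFP+ cells.

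**Figure D4:**
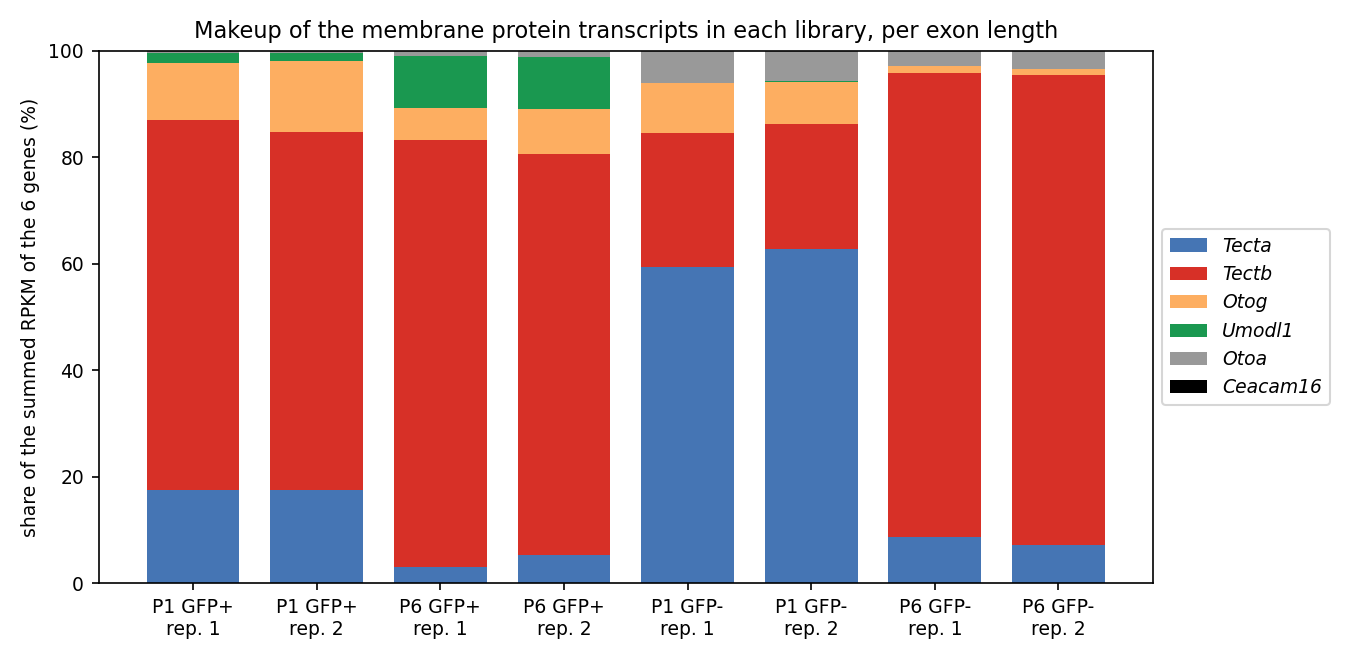
Share of the summed RPKM of the 6 genes (y axis, percent) held by each gene in the 8 libraries (x axis); *Ceacam16* is too low to be seen. *Tectb* holds 67.2% to 88.2% in all libraries except P1 GFP-, where *Tecta* holds 59.4% and 62.7%.

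Together the 6 genes made up 1.37% and 1.30% of all gene counts in P1 GFP+ cells and 2.20% and 1.99% in P6 GFP+ cells, against 0.0894% and 0.288% in P1 GFP- cells and 0.327% and 0.243% in P6 GFP- cells. In their summed RPKM, *Tecta* took 17.6% in each P1 GFP+ library and 3.12% and 5.35% in the P6 GFP+ libraries. *Umodl1* took 1.79% and 1.65% at P1 and 9.80% and 9.85% at P6 in GFP+ cells, and at most 0.0770% in any GFP- library. The share of *Otoa* was larger in GFP- than in GFP+ libraries at both ages.

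The genes with the most similar pattern were taken by Pearson correlation of log2 CPM over the 8 libraries, among 3477 genes. These are descriptions over 8 libraries that fall into 4 groups, with no test. *Umodl1* was most like *Pof1b* (r = 0.996), *Nfe2l3* (0.996) and *Mal2* (0.995), and *Otog* most like *Pacsin1* (0.997), *Camsap3* (0.997) and *Dnajc6* (0.996). *Tectb* was nearest to *Paqr8* (0.990), *Emb* (0.989) and *Sel1l3* (0.984), *Ceacam16* to *Unc5cl* (0.989), *Bmp6* (0.989) and *Rell1* (0.981), and *Tecta* to *Rtn1* (0.976), *Spnb3* (0.976) and *St8sia3* (0.965). *Otoa* had the least close neighbours, *Klk8* (0.942), *Gsn* (0.925) and *Tmem171* (0.910). The tectorins themselves were correlated at r = 0.366, and *Tectb* with *Umodl1* at 0.901. The 6 genes themselves were left out of the search for neighbours.

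The collagens of the tectorial membrane were not enriched in GFP+ cells. Of *Col2a1*, *Col9a1*, *Col9a2*, *Col9a3*, *Col11a1* and *Col11a2*, 4 were lower and none higher in GFP+ cells at P1, and all 6 were lower at P6. *Col11a2* had 2154 and 2669 CPM in GFP+ and 3296 and 3609 CPM in GFP- cells at P1, and 4582 and 4684 CPM against 9210.2 and 12675 CPM at P6. With age all 6 rose in GFP- cells, beside 11.3% of all genes tested, and *Col9a1* and *Col11a2* rose in GFP+ cells, beside 12.1%. Cartilage, bone and fibrocytes also make these collagens, and the 4 cartilage and bone markers summed to 310.0 and 351 CPM in the P6 GFP- libraries against 52.6 and 62.4 CPM in the P1 GFP- libraries. Their part in the collagen levels was not tested.

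Among relatives of the 6 genes, *Strc*, which codes for stereocilin, the mesothelin family protein that links the longest stereocilia to the tectorial membrane, had 25.3 and 36.3 CPM in P1 GFP+ cells and 4.70 and 2.52 CPM in P1 GFP- cells. It was enriched at P1 (log2 fold change 3.21, adjusted p = 0.000545) and at P6 (4.55, adjusted p = 0.000719), and its relative *Mslnl* was enriched at both ages. At P6 *Mslnl* was low, with 34 reads over both GFP+ libraries (1.18 and 0.435 CPM) and 9 over both GFP- libraries. *Otol1*, the collagen-like otolin of otoconia, had 67.8 and 57.7 CPM in P1 GFP+ cells and 5.30 and 8.81 CPM in P1 GFP- cells. At P6 it had 114 and 122 CPM against 8.27 and 7.08 CPM, and it was enriched at both ages (log2 fold changes 3.25 and 3.94, adjusted p = 0.000167 and 0.000645). Like *Tectb*, *Otol1* rose with age in GFP+ cells (2.00-fold, adjusted p = 0.0112). It was the 1 gene called higher in its list of 4 genes of otoconia, the otolithic membrane and the cupula. Of the 3 tested at P1, *Oc90* (279 and 126 CPM in GFP+, 471 and 794 CPM in GFP- cells) and *Zpld1* (0.982 and 0.723 CPM, 24.1 and 25.5 CPM) were lower, and the median log2 fold change was -1.52. At P6 *Zpld1* was lower, and *Oc90* and *Otop1* did not pass the test. In *Strc* as in *Umodl1* the fractions did not overlap at either age. Stereocilin is known from hair cells, and 6 of the 8 hair cell markers were also higher in GFP+ cells at each age. Among all genes tested, 25.5% were higher at P1 and 15.5% at P6. Mean levels at P1 were 4.50 CPM in GFP+ and 4.89 in GFP- cells for *Slc17a8*, and 4.91 and 4.93 for *Tmc1*. At P6 they were 5.69 and 4.96 CPM for *Slc17a8*, and 288 and 326 for *Myo6*. Of the fractions gated by GFP, the study kept as GFP+ the one with the least *Myo6* by qPCR. *Otof*, which encodes otoferlin of the hair cell synapse, had 151 and 191 CPM in P1 GFP+ cells against 18.2 and 16.6 CPM in P1 GFP- cells (log2 fold change 3.39), and 114 and 118 CPM against 12.5 and 22.0 CPM at P6 (2.74). *Gfi1*, *Pou4f3* and *Atoh1*, which encode hair cell transcription factors, were higher by 3.32, 3.61 and 4.61 log2 units at P1 and by 4.08, 4.36 and 6.48 at P6. For *Atoh1* the P6 value rests on 46 reads over both GFP+ libraries and 1 read over both GFP- libraries, so its size is not well known. In P6 GFP- cells *Gfi1* had 45 reads and *Pou4f3* 66 over both libraries. The 8 markers, with *Myo6* holding most of the sum, came to 693 and 795 CPM in GFP+ cells against 461 and 399 CPM in GFP- cells at P1, and to 424 and 503 CPM against 341 and 383 CPM at P6. The part of hair cells in the level of *Strc* was not tested.

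Among all genes tested, 25.5% were higher and 28.1% lower in GFP+ cells at P1, and 15.5% and 17.9% at P6. Of 11 other zona pellucida domain genes, 4 could be tested at P1 and 6 at P6. Every one of these was lower in GFP+ cells, such as *Eng* (endoglin, of blood vessels) and *Tgfbr3* (betaglycan). Some, such as *Zp2*, passed the filter on low counts only through GFP- cells, which set their direction. *Zp2* had 12 reads over both GFP+ libraries and 101 over both GFP- libraries at P1, and 1 and 48 at P6. *Zp1*, with 15 against 1 at P1 and 20 against 3 at P6, was not tested. Of 7 listed genes of gel-forming mucins and von Willebrand domains, 6 could be tested at P1, where *Muc5ac*, *Muc5b* and *Sspo* were higher, and 4 at P6, where none was called. At P1 *Muc5ac* and *Muc5b* were barely detected, with 39 and 41 reads over both GFP+ libraries against 3 and 11 over both GFP- libraries. *Sspo*, which codes for SCO-spondin, had 27.0 and 30.6 CPM in P1 GFP+ cells and 5.12 and 6.16 CPM in P6 GFP+ cells, the opposite of *Ceacam16*, *Otoa* and *Umodl1* between ages (log2 fold change -2.25, adjusted p = 0.00342). Of 6 other CEA family genes, 4 could be tested at each age: *Ceacam10* and *Ceacam20* were higher and *Ceacam1* lower in GFP+ cells at P1, and *Ceacam19* was higher at P6. The 3 higher calls rest on few reads over both libraries of a fraction. At P1 *Ceacam10* had 70 in GFP+ and 40 in GFP- cells and *Ceacam20* 25 and 2, and at P6 *Ceacam19* had 16 and 0. Of the 4 proprotein convertases, enzymes that cut many secreted and zona pellucida domain proteins, *Pcsk5* was lower in GFP+ cells at both ages and *Furin* at P6, and none was higher.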

How the data were processed

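The 6 genes and the lists of related genes and markers were chosen with earlier results of these data known. The text names all members, at most 5 genes of each list, and the 3 genes nearest to each member among those with a mean of at least 100 counts and group means spanning at least 2 log2 units (0.5 count added).

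Raw counts per Ensembl gene were deposited for 8 paired-end libraries made without strand marking. Per the labels and the study's methods, the authors aligned reads to mm9 with TopHat (1.4.0 in the submitters' processing notes) and made the counts with HTSeq, whose mode is not given in the sources used here. Reads on no gene made up 13.8% to 25.6% of those listed, reads on several genes 2.05% to 2.53%, and reads aligned in several places 7.41% to 9.60%, and all were left out of totals and tests.

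CPM divides by the total on genes and RPKM also by the union of annotated exons. For each comparison of 2 groups, edgeR 4.0.16 (R 4.3.3) was run on those 4 libraries, with filterByExpr (minimum count 10, minimum total 15), TMM normalization, the quasi-likelihood test and Benjamini-Hochberg adjustment over all genes tested. The interaction used all 8 libraries. The procedure was tested on simulated data. Alternatives were DESeq2 size factors, library totals, DESeq2 1.42.0, no filter, all 8 libraries, a replicate block and leaving out each replicate. Intervals cover the spread between libraries only. No library was a repeat of another: between replicates, chi-square over its degrees of freedom ranged from 15.1 to 58.0. Across genes, the replicate differences of groups sharing the same numbers had correlations of 0.034 (P1 fractions), 0.060 (P6 fractions), -0.119 (GFP+ ages) and -0.303 (GFP- ages), so the numbers were not taken to pair libraries. Such correlations do not exclude a pairing.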

Additional observations from a re-analysis of the deposited data

How the results depend on the processing

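The enrichment of *Tectb*, *Otog* and *Umodl1* at P1, of *Otog*, *Ceacam16* and *Umodl1* at P6, the rise of *Otoa*, *Ceacam16* and *Umodl1* in GFP+ cells and of *Tectb* in GFP- cells passed the threshold in every alternative. Without a filter on low counts, 1 gene was lower at P1, 4 were higher and 2 lower with age in GFP- cells, and the interaction called 4 higher and 1 lower. Among all genes at this setting, 5818 of 27059 were lower at P1. With age in GFP- cells 3081 of 27035 were higher and 2363 lower, and the interaction called 2128 of 28415 higher and 1073 lower. With all 8 libraries in the fit, 0 fell in GFP+ cells, where the main count was 1. The DESeq2 test called 2 higher and 1 lower for the interaction, where edgeR called 0, and 1463 higher and 826 lower of all 19233 genes. Leaving out 1 replicate, the genes higher ranged from 3 to 5 at P1 (5 without GFP- replicate 2), from 3 to 6 at P6 (3 without GFP- replicate 2), from 1 to 4 with age in GFP- cells (1 without either P6 library, 4 without P1 replicate 2) and from 0 to 4 for the interaction (4 without P1 GFP- replicate 1, 2 without P6 GFP+ replicate 2). The genes lower ranged from 0 to 1 at P1 (1 without GFP- replicate 1), from 0 to 1 with age in GFP+ cells (0 without either P1 library), from 0 to 2 with age in GFP- cells (2 without P1 replicate 1) and from 0 to 1 for the interaction (1 without P1 GFP- replicate 2). *Otoa* at P1 reversed, from -0.62 to 0.41, without P1 GFP- replicate 2, and was -1.23 without replicate 1. A fit with a lone library in a group leaves out the spread between its replicates. The causes were not tested, beyond the fewer libraries fitted.

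The replicate block, whose numbers were not taken to pair the libraries, gave 4 genes higher at P1 in place of 3, with *Tecta* at an adjusted p of 0.0312, and changed no other count of the 6 genes. With the numbers crossed between ages, chosen after seeing the data, 3 genes were higher and 2 lower in GFP- cells and 3 higher, without *Tectb* (adjusted p = 0.154), and 1 lower in GFP+ cells.

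Over all genes and all alternatives, genes called higher ranged from 2830 to 5600 at P1 (main 4771), 1075 to 4419 at P6 (2843), 417 to 4836 with age in GFP+ cells (2081), 798 to 3081 with age in GFP- cells (2130) and 157 to 2128 for the interaction (692), and genes called lower from 3582 to 6286 (5251), 865 to 5387 (3279), 263 to 4655 (1430), 342 to 2866 (1489) and 169 to 1726 (536). Library totals moved the share of calls that were higher at P6 from 58.9% to 33.6% in GFP- cells, and from 56.4% to 67.0% for the interaction. For the 6 genes the DESeq2 size factors and library totals left every count the same. The low counts of *Ceacam16* at P1 and of *Umodl1* in GFP- cells limit how well their folds are known.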
